A study of Mus musculus with 54 samples.

Results

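Mature microRNAs (miRNAs) were compared between the livers of mice that stayed on a high-fat diet and mice that were returned to a low-fat diet. The comparison used 12 of the 54 small RNA libraries of the study, 6 from the high-fat group (HF) and 6 from the return group (HFLF), and the 422 of 1966 listed mature miRNA names that passed a filter on low counts. All animals were wild-type C57BL/6 males of the F0 generation. Chow was fed up to an age of 6 weeks, and tissue was taken at 24 weeks. HF livers came from animals given the high-fat diet for 18 weeks. In the HFLF group 9 weeks of the high-fat diet were followed by 9 weeks of the low-fat diet. Another group of 6 livers, from mice on the low-fat diet for 18 weeks (LF), entered the same fit, and its levels are given for many of the named miRNAs. The study also sampled sperm and eWAT, the white adipose tissue of the epididymal fat pad. The count table codes the diets with the letters C, H and R, which the sources do not define; C was read as LF and R as HFLF, and every direction below rests on that reading. Nothing in the labels beyond a library number says that the libraries of a group came from separate animals, so the p-values measure the spread between these libraries.

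A miRNA is an RNA of about the length of a short oligonucleotide that is cut from a hairpin and loaded into an Argonaute protein. It pairs with target mRNAs mainly through its seed, bases 2 to 8 from the 5′ end, and lowers their translation and stability. In liver, miR-122 dominates the hepatocyte pool and supports cholesterol and fatty acid synthesis. Several other miRNAs have known roles in hepatic lipid and insulin handling in mice: miR-33, which represses the cholesterol exporter Abca1, miR-34a, which represses the deacetylase Sirt1, and miR-103 and miR-107, which lower insulin sensitivity through caveolin-1. Return to a low-fat diet after a high-fat diet raises the question of which high-fat levels persist once the fat is withdrawn. The groups compared here cannot settle that question. HFLF mice also had fewer weeks of the high-fat diet than HF mice, and no group was sampled at the diet switch. A level that fell back after the switch and a level not yet reached by then cannot be told apart.

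The mature sequences of the miRNAs that the results turn on are given here because members of a family can share a seed and still differ in level. They come from RefSeq, on the mouse build GRCm38.p6, which held an entry for 356 of the 422 names tested. Each is written 5′ to 3′ with the seed in capitals. The first set holds let-7e with the neighbour cut from the same locus, miR-125a, and the more abundant let-7a with the same seed.
let-7e-5p: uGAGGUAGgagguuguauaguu
let-7a-5p: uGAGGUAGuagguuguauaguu
miR-125a-5p: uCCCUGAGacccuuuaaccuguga
The second set holds the pair that share a seed and sit in introns of pantothenate kinase genes, and miR-33, miR-34a, miR-802 and miR-335 of the lipid list.
miR-107-3p: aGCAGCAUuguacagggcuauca
miR-103-3p: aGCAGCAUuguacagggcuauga
miR-33-5p: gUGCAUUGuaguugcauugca
miR-34a-5p: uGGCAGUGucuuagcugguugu
miR-802-5p: uCAGUAACaaagauucauccuu
miR-335-5p: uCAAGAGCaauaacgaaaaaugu
The third set holds further miRNAs of small p value.
miR-465c-5p: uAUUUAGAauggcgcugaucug
miR-425-5p: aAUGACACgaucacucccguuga
miR-149-5p: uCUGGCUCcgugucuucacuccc
miR-92a-3p: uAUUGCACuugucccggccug
miR-26a-5p: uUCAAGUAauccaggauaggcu
miR-26b-5p: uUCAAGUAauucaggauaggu
miR-1981-5p: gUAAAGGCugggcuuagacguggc

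Counted from 1 at the 5′ end, let-7e-5p differed from let-7a-5p at a single base outside the seed (U9G), and miR-107-3p from miR-103-3p at a single base near the 3′ end (G22C). The hairpins of let-7e and miR-125a lie side by side at chr17:17830352-17830444 and chr17:17830812-17830879, in an intron and in an exon of Spaca6. The hairpin of miR-107 lies at chr19:34820687-34820773 in an intron of Pank1. Those of miR-103 lie in introns of Pank2 (chr2:131288052-131288137) and Pank3 (chr11:35782396-35782481). That of miR-33 lies at chr15:82198122-82198190 in an intron of Srebf2, the gene of the cholesterol-sensing factor SREBP2. That of miR-335 lies at chr6:30741299-30741396 in an intron of the imprinted gene Mest. The hairpin of miR-149 lies at chr1:92850378-92850443 in an intron of Gpc1, and that of miR-1981 at chr1:184822407-184822488 in an intron of Marc2. miR-465c-5p is encoded by a pair of hairpins on the X chromosome, at chrX:66825955-66826035 and chrX:66832517-66832597, and the related miR-465b-5p differs from it by one base (C13U). Reads of these near-identical copies can be split between names by the authors' counting, so their levels are uncertain.

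The 12 libraries held 7017730 to 10757389 counts and 608 to 706 detected miRNAs, so that 3 counts were worth 0.262 to 0.405 CPM (counts per 1000000, scaled by TMM, the trimmed mean of M-values). Of the HF counts, 42.1% ± 2.70 (SD, n = 6) belonged to miR-122-5p, the defining miRNA of hepatocytes, beside 44.7% ± 1.93 in HFLF and 47.3% ± 2.65 in LF (n = 6 each). The difference of 2.59 percentage points did not pass a 2-sided exact permutation test (p = 0.0801, where the smallest p the 924 splits allow is 0.00216). Leaving out 1 library at a time gave 1.74 to 3.33 points, with an exact p of 0.0303 to 0.167. Only without HF 5 did the difference pass (3.33 points, exact p = 0.0303). miR-122-5p was the most abundant name in each of the 12 libraries, with let-7f-5p next, which matches the liver label. HF 1 stood apart from the other libraries, with the lowest total, the largest scaling factor (1.21), the lowest share of miR-122-5p (37.9%) and the lowest mean correlation with its own group (0.974). In bulk tissue, a lower level from fewer cells of a type and one from less RNA per cell cannot be told apart.

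No miRNA passed the test between HFLF and HF. Of 422 miRNAs, 0 (0%) reached a Benjamini-Hochberg adjusted p below 0.05 in edgeR's quasi-likelihood test, while 65 (15.4%) had an unadjusted p below 0.05, of which 29 were higher (6.87%) and 36 lower (8.53%) in HFLF. The smallest adjusted p was that of miR-465c-5p, at 0.0530. DESeq2 on the same counts called 15 (3.55%), 9 higher (2.13%) and 6 lower (1.42%), with the same number, 65, at an unadjusted p below 0.05. Those called were miR-465c-5p (Benjamini-Hochberg adjusted p = 0.00261) and let-7e-5p, miR-10a-5p, miR-26a-5p, miR-92a-3p, miR-107-3p, miR-125a-5p, miR-149-5p, miR-335-5p, miR-421-3p, miR-425-5p, miR-455-3p (outside the naming rule and chosen after its values were seen), miR-511-5p, miR-1981-5p and miR-5099 (0.0341 to 0.0486). RLE scaling in edgeR called miR-465c-5p alone (adjusted p = 0.0483), and a fit without the filter on low counts called 9 of 1179. Leaving out one library also made calls: 6 without HF 6, 3 without HF 1, 2 without HF 5 and 1 without HFLF 5, against 0 without any of the other 8. Scaling by total counts made no call and moved the split of unadjusted p values to 12 higher and 57 lower.

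**Figure D1:**
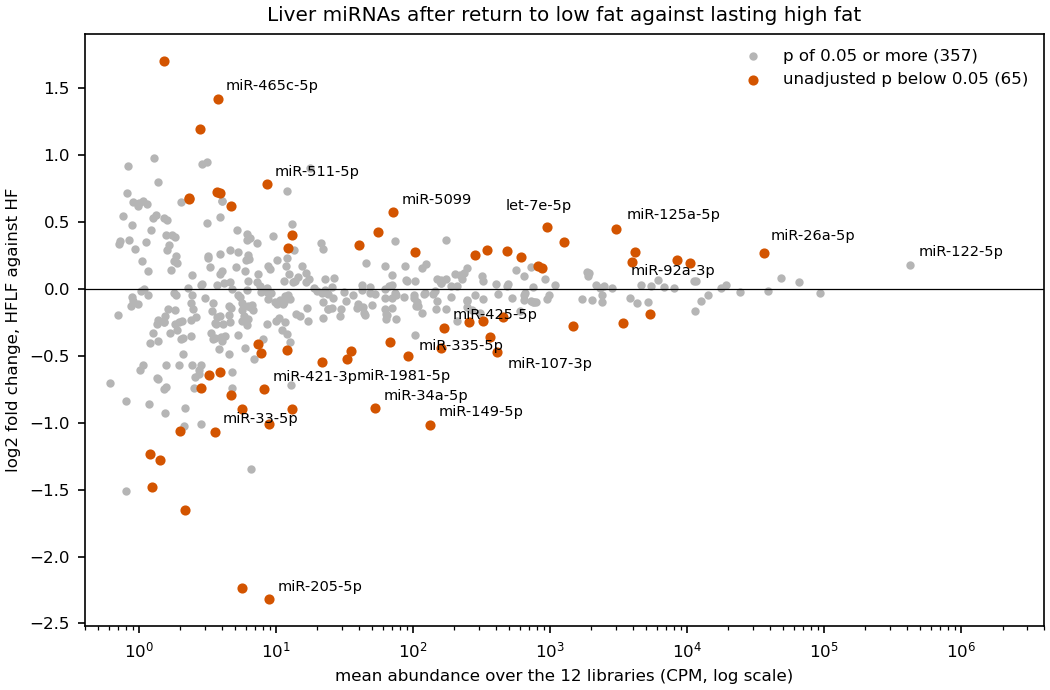
Log2 fold change of HFLF against HF for each of the 422 miRNAs tested (vertical axis) by mean abundance over the 12 libraries in CPM (log scale); orange points have an unadjusted p below 0.05 in edgeR. The 65 orange points lie on both sides of 0 and at all abundances, and none passed after adjustment.

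The intervals show what sizes of change these libraries can hold. Over all 422 miRNAs the median log2 fold change was -0.04 and the median standard error 0.22. The 95% interval of the fold change lay within 2-fold in either direction for 280 of 422 miRNAs, and within 1.5-fold for 187. Among the 43 miRNAs at 1000 CPM or more, 43 lay within 2-fold and 42 within 1.5-fold, and 10 of the 43 (23.3%) had an unadjusted p below 0.05. From 10 to 1000 CPM the counts were 166 and 130 of 177, with 29 (16.4%) below 0.05. Under 10 CPM they were 71 and 15 of 202, with 26 (12.9%) below 0.05, so for most rare miRNAs the interval held a 2-fold difference.

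The largest of the 10 differences with the smallest p was that of miR-465c-5p, an X-linked miRNA of a cluster known from mouse testis. It lay at 0.972, 2.03 and 3.08 CPM (lowest, median and highest) in HF, at 2.54, 5.48 and 8.16 CPM in HFLF, and at 5.17, 7.88 and 9.64 CPM in LF. All 6 HFLF libraries were above the HF mean, and only the lowest HFLF library, HFLF 5, fell inside the HF range. The log2 fold change was 1.42 (SE 0.30, 95% interval 0.79 to 2.05; edgeR, Benjamini-Hochberg adjusted p = 0.0530), and over the 19 other settings it ran from 1.27 to 1.59, with an adjusted p of 0.00261 to 0.149. At 3 counts worth up to 0.405 CPM, the HF values rest on few counts per library. The other arm, miR-465c-3p, lay 0.66 higher on the log2 scale (edgeR, unadjusted p = 0.0765). Its values equalled those of miR-465b-3p in every HF and HFLF library, so they cannot be read as those of miR-465c alone. The related miR-465b-5p lay 0.50 higher (edgeR, unadjusted p = 0.322). miR-465c-3p, miR-465b-3p and miR-465b-5p were named after their values were seen.

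miR-511-5p, made from an intron of the macrophage mannose receptor gene in mouse and read as a macrophage marker, lay at 4.14, 6.47 and 8.20 CPM in HF and at 8.79, 9.78 and 15.5 CPM in HFLF. Every HFLF library was above every HF library, with a log2 fold change of 0.78 (SE 0.21; edgeR, Benjamini-Hochberg adjusted p = 0.109), and the LF median was 12.6 CPM. The other arm of its hairpin, miR-511-3p, lay 0.17 higher on the log2 scale (95% interval -0.13 to 0.47), and was named after its values were seen.

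miR-425-5p separated the groups in the other direction, with 172, 186 and 197 CPM in HF and 135, 153 and 171 CPM in HFLF. The lowest HF library lay just above the highest HFLF library, and the log2 fold change was -0.29 (SE 0.08; adjusted p = 0.109). LF, with a median of 155 CPM, lay at the level of HFLF. miR-421-3p also separated the groups, with 8.30, 8.98 and 13.6 CPM in HF and 4.32, 6.25 and 7.73 CPM in HFLF (log2 fold change -0.75, SE 0.20; adjusted p = 0.109). For miR-421-3p the HFLF median lay below the LF median of 7.63 CPM. In all, 5 of 422 miRNAs (1.18%) had groups without overlap. Higher in HFLF were 3 (0.711%): miR-511-5p, miR-10a-5p, a Hox-cluster miRNA, and miR-190b-5p, which was chosen after its values were seen. Lower were 2 (0.474%), miR-421-3p and miR-425-5p. The count of 5 was 11 without HF 1, 10 without HF 5 and 8 without HFLF 1, and 3 under total counts. miR-10a-5p lay at 3344, 3707 and 3831 CPM in HF and at 3935, 4195 and 4586 CPM in HFLF (log2 fold change 0.20, SE 0.06; adjusted p = 0.118).

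The HF group was widely spread for miR-149-5p, an intronic miRNA of the glypican gene Gpc1. It lay at 57.6, 190 and 265 CPM in HF, at 60.7, 93.7 and 121 CPM in HFLF beside a median of 43.9 CPM in LF. HF 1, HF 2, HF 3 and HF 4 were above all HFLF libraries, HF 6 lay among them and HF 5 was below all of them, so the groups overlapped. In HFLF against HF the log2 fold change was -1.01 (SE 0.28; edgeR, Benjamini-Hochberg adjusted p = 0.109), and the difference was called without HF 5 (-1.18, adjusted p = 0.0119) and without HF 6 (-1.11, adjusted p = 0.0487).

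miR-335-5p, from an intron of Mest, a gene that follows fat mass expansion in mouse adipose tissue, lay at 77.8, 98.9 and 142 CPM in HF and in a narrow range of 68.2, 74.4 and 85.8 CPM in HFLF. HF 1, HF 3 and HF 4 were again the highest of the HF libraries, and HF 6 alone lay inside the HFLF range. The LF median was 61.7 CPM. The difference came to -0.50 on the log2 scale (SE 0.15; adjusted p = 0.111). The other arm, miR-335-3p, also on the lipid list, lay at -0.54 (adjusted p = 0.272).

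miR-26a-5p, which in mouse liver is known to restrain lipid synthesis and support insulin sensitivity, was the most abundant of the 10, at 28814, 31693 and 39275 CPM in HF and at 34129, 39841 and 44453 CPM in HFLF. HF 5 and HF 6 reached into the HFLF range, and the LF median was 42011 CPM. Its log2 fold change was 0.27 (SE 0.08, 95% interval 0.11 to 0.43; adjusted p = 0.109). miR-26b-5p, with the same seed, lay 0.19 higher (SE 0.08; adjusted p = 0.258). miR-92a-3p, of the miR-17-92 cluster, lay at 3076, 3896 and 4166 CPM in HF and 4095, 4592 and 4853 CPM in HFLF, with a narrow overlap (log2 fold change 0.28, SE 0.08; adjusted p = 0.109). Its LF median was 4398 CPM.

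Of the remaining pair among the 10, miR-5099 lay at a median of 56.3 CPM in HF and 83.7 CPM in HFLF (log2 fold change 0.58, SE 0.16; adjusted p = 0.109). miR-1981-5p lay at 41.4 CPM in HF and 25.8 CPM in HFLF (log2 fold change -0.52, SE 0.15; adjusted p = 0.109). HF 5 and HF 6 lay inside the HFLF range of miR-1981-5p and the other HF libraries lay above it. LF medians were 66.4 CPM for miR-5099 and 28.3 CPM for miR-1981-5p, each between those of HF and HFLF.

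**Figure D2:**
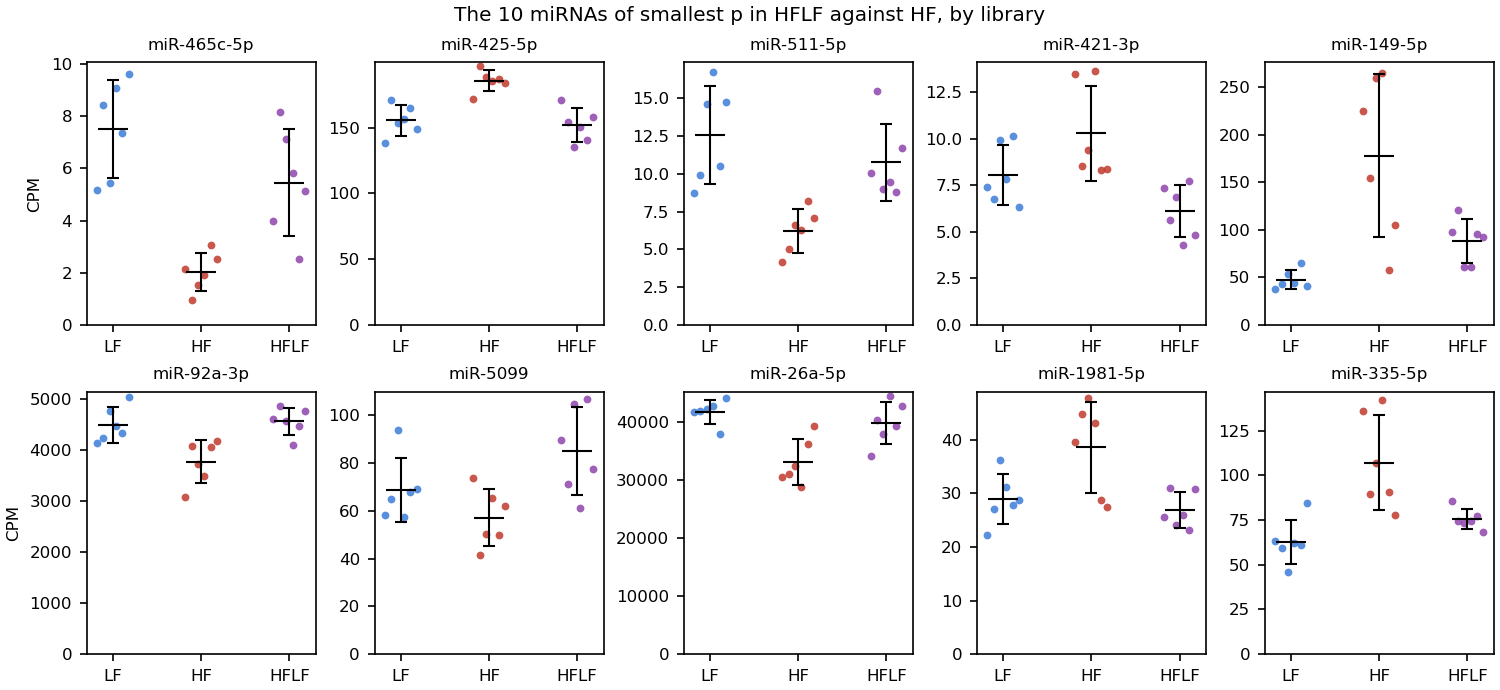
Abundance in CPM of the 10 miRNAs of smallest p in every liver library, with LF, HF and HFLF on the horizontal axis (n = 6 each); points are libraries, the long bar is the mean and the whiskers 1 SD. HF and HFLF points are separate for miR-425-5p, miR-511-5p and miR-421-3p, and the HF points of miR-149-5p spread from 57.6 to 265 CPM.

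In the let-7 family, which represses Lin28 and parts of the insulin pathway, let-7e-5p stood apart from the other abundant members. It lay at 615, 788 and 1093 CPM in HF, at 865, 1082 and 1326 CPM in HFLF and at 1099, 1400 and 1813 CPM in LF. All 6 HFLF libraries were above the HF mean, but HF 1 lay inside the HFLF range. For let-7e-5p the log2 fold change was 0.47 (SE 0.14, 95% interval 0.17 to 0.76; edgeR, Benjamini-Hochberg adjusted p = 0.118), and it was called without HF 1 (0.58, adjusted p = 0.0454). The other arm, let-7e-3p, lay at -0.04 (edgeR, unadjusted p = 0.898) and was named after its values were seen.

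The neighbour miR-125a-5p, homologous to the worm heterochronic miRNA lin-4, followed the same order, at 2186, 2550 and 3264 CPM in HF, 2752, 3533 and 4213 CPM in HFLF and 3226, 4756 and 5857 CPM in LF. HF 1 was again the highest HF library and lay inside the HFLF range, and the log2 fold change was 0.45 (SE 0.14; adjusted p = 0.118). miR-99b-5p, of the same cluster, had a median of 535 CPM in HF and 646 CPM in HFLF (log2 fold change 0.24, SE 0.11; adjusted p = 0.282). For these 3 neighbours HF lay below LF by 0.87, 0.90 and 0.55 on the log2 scale, and each of those differences passed (adjusted p = 0.000534, 0.000433 and 0.00343). HFLF lay below LF by 0.41, 0.45 and 0.31, and none of those passed (adjusted p = 0.244, 0.214 and 0.244). The 3 contrasts share libraries, so their values are set side by side and were not tested for agreement.

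The rest of the let-7 family was narrow. Log2 fold changes of let-7a, let-7b, let-7c, let-7d, let-7f, let-7g, let-7i and miR-98 lay between -0.09 and 0.05 (adjusted p = 0.692 to 0.989), and the signs of let-7a, let-7b, let-7c, let-7d, let-7f and let-7g flipped with the scaling or the fit. let-7a-5p, for example, lay at a median of 61811 CPM in HF and 66012 CPM in HFLF, with a 95% interval of -0.11 to 0.22. The rare let-7k had a log2 fold change of 0.66 with an interval wide enough to hold both directions. Of the 10 members, 1 had an unadjusted p below 0.05, and the median log2 fold change of the list was -0.01.

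**Figure D3:**
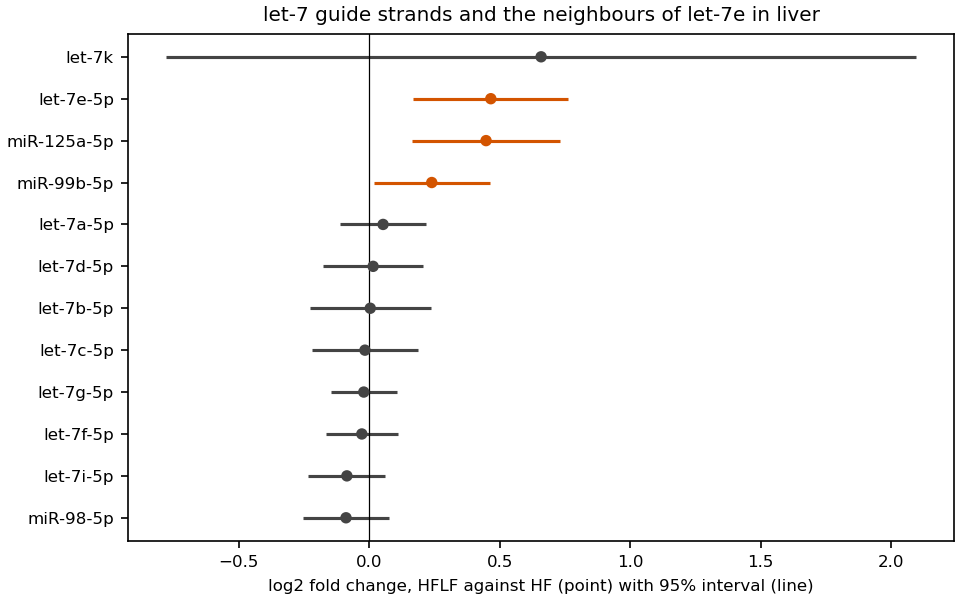
Log2 fold change of HFLF against HF (points) with 95% intervals (lines) for the let-7 family and, in orange, let-7e-5p with its neighbours miR-125a-5p and miR-99b-5p. The 3 orange intervals lie above 0, while those of the other let-7 members include 0.

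Members of the lipid and fatty liver list lay mostly lower in HFLF. Of 25 tested, 0 passed, 7 were lower and 1 higher at an unadjusted p below 0.05, and the list's median log2 fold change was -0.19, beside -0.04 over all 422. By sign alone, 17 of the 25 lay lower, against 240 of all 422, and at an unadjusted p below 0.05 the share lower over all 422 was 8.53%. miR-107-3p lay at 342, 455 and 659 CPM in HF, at 257, 357 and 424 CPM in HFLF and at 256, 325 and 336 CPM in LF. HF 1, HF 3 and HF 4 were above the HFLF range and HF 2, HF 5 and HF 6 inside it, and the log2 fold change was -0.47 (SE 0.15; adjusted p = 0.118). miR-103-3p, with the same seed, lay at a median of 5816 CPM in HF and 5216 CPM in HFLF (-0.19, SE 0.08; adjusted p = 0.282).

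miR-33-5p lay at 3.50, 4.71 and 6.47 CPM in HF and at 1.08, 1.90 and 4.10 CPM in HFLF, beside a median of 2.29 CPM in LF. HFLF 1 and HFLF 5 fell inside the HF range, and the other HFLF libraries were below it. This gave a log2 fold change of -1.07 (SE 0.34, 95% interval -1.78 to -0.35; adjusted p = 0.118).

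miR-34a-5p, a target of p53, lay at 30.8, 63.9 and 121 CPM in HF and at 23.2, 35.0 and 51.5 CPM in HFLF. Its mean was 68.6 CPM in HF, 37.0 CPM in HFLF and 34.3 CPM in LF. HF 1, HF 3 and HF 4 were above every HFLF library, while HF 2, HF 5 and HF 6 lay among them, and the log2 difference was -0.89 (SE 0.32; adjusted p = 0.166). miR-802-5p lay at 92.2, 181 and 280 CPM in HF, at 121, 134 and 155 CPM in HFLF and at 66.6, 86.0 and 135 CPM in LF (log2 fold change -0.44, SE 0.20; adjusted p = 0.282), and at -0.28 without HF 2. HF 5 was below all HFLF libraries and the other 5 HF libraries above them. The 1 list member that lay higher at this level was miR-148a-3p, which represses the LDL receptor, at a median of 7962 CPM in HF and 9007 CPM in HFLF (0.21, SE 0.10; adjusted p = 0.282), and at 0.14 without HF 1. The mean of miR-148a-3p was 7828 CPM in HF, 9086 CPM in HFLF and 7842 CPM in LF, so HF and not HFLF lay near LF. Others of the list lay close to 0, such as miR-27b-3p (-0.10) and miR-21a-5p (0.08), whose sign flipped under total counts.

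Hepatocyte miRNAs were close to level. Of 13 tested, 1 lay higher (miR-148a-3p) and 1 lower (miR-802-5p) at an unadjusted p below 0.05, and the median log2 fold change was 0.03. miR-122-5p lay at 314486, 396127 and 449097 CPM in HF and at 389681, 443111 and 508928 CPM in HFLF. The groups overlapped widely, and the log2 fold change was 0.18 (SE 0.10, 95% interval -0.03 to 0.39; adjusted p = 0.439). miR-192-5p, another hepatocyte and gut miRNA, which was chosen after its values were seen, had a 95% interval of -0.13 to 0.15.

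Markers of other liver cells were measured for their summed level. The 14 leukocyte and macrophage miRNAs summed to 674 to 886 CPM in HF and 665 to 914 CPM in HFLF, with a median log2 fold change of 0.07. Of them, 2 lay higher at an unadjusted p below 0.05, miR-511-5p and the lymphocyte miRNA miR-150-5p (log2 fold change 0.43, and 0.28 without HFLF 3; adjusted p = 0.258). The 1 that lay lower was the NF-kB-linked miR-146b-5p (-0.40, and -0.22 without HF 1; adjusted p = 0.246). For miR-150-5p the mean was 46.9 CPM in HF, 63.2 CPM in HFLF and 42.7 CPM in LF. For miR-146b-5p it was 77.2, 58.6 and 76.1 CPM in that order, so in both HF lay nearer LF than HFLF did. The 13 fibroblast and stellate miRNAs summed to 16920 to 21354 CPM in HF and 16934 to 22899 CPM in HFLF, with 2 higher at that level, miR-10a-5p and miR-145a-3p (0.29; adjusted p = 0.166). The sums of the endothelial, erythroid, striated muscle and epithelial lists overlapped between the groups as well. In the erythroid, endothelial and striated muscle lists 0 members of 6, 2 and 3 had an unadjusted p below 0.05. Of the 2 pancreas markers tested, miR-375-3p, chosen after its values were seen, lay at a mean of 6.69 CPM in HF and 5.53 CPM in HFLF, and miR-148a-3p, which hepatocytes also make, was described above. Of the 9 epithelial miRNAs, miR-205-5p was the exception, with 1.85, 3.24 and 62.7 CPM in HF and 0.863, 2.56 and 5.09 CPM in HFLF. Its highest value was that of HF 1, and its log2 fold change of -2.32 (SE 0.74; adjusted p = 0.118) was -0.83 without that library (adjusted p = 0.526).

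Among miRNA families, 2 of 4 tested miR-26 members, 3 of 14 miR-17-92 members and paralogs, 3 of 7 miR-181 members and 3 of 9 miR-99/100 and miR-125 members lay higher at an unadjusted p below 0.05, and none of these families had a member that lay lower at that level. Over all 422 miRNAs the share higher at that level was 6.87%. By sign alone, 4 of the 7 miR-181 members and 6 of the 14 miR-17-92 members lay lower, and the median of the miR-181 list was -0.05. The miR-17-92 members higher at an unadjusted p below 0.05 were miR-92a-3p, miR-19b-3p (log2 fold change 0.25) and miR-25-5p (0.72). In the miR-181 family, known for its part in lymphocyte and endothelial signalling, the members higher at that level were miR-181a-5p (0.28), miR-181b-5p (0.28) and miR-181a-2-3p (0.40). The miR-29 family (7 tested), which represses collagens, the miR-30 family (5), the miR-15/16 group (9), the miR-23/27/24 group (9), the miR-221 cluster (4) and the miR-183 cluster (4) had 0 members at that level. In the miR-183 cluster, which SREBP2 can induce, the median log2 fold change was 0.36, and all 4 members lay above 0 with none at that level. Of the 2 tested names of the miR-34 and miR-449 list, only miR-34a-5p had an unadjusted p below 0.05, and it was also the 1 of 5 on the list of p53-, CREB- and clock-linked miRNAs.

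The Dlk1-Dio3 cluster on chromosome 12, which is made from the maternal allele and is known to be strongly active before birth, had the lowest median of the 23 lists. Of its 60 names, 16 passed the filter, mostly at a few CPM. All 16 had a log2 fold change below 0, with a median of -0.70, and 3 had an unadjusted p below 0.05 and 0 passed. Over all 422 miRNAs 240 lay below 0 and 65 (15.4%) had an unadjusted p below 0.05, so the 3 of 16 are near the share over all miRNAs. The best-measured of these 3, miR-541-5p, lay at 4.46, 8.67 and 27.9 CPM in HF, at 4.44, 5.55 and 7.66 CPM in HFLF and at 9.64, 20.2 and 30.8 CPM in LF. HF 5 held the highest HF value, and the log2 fold change of -1.01 (SE 0.39; adjusted p = 0.241) was -0.53 without it. miR-337-5p (-1.23) and miR-543-3p (-1.28) lay at or under 2.03 CPM on average in both groups, and miR-543-3p lay at -0.76 without HF 5. The summed level of the 16 ran from 29.6 to 151 CPM in HF and from 31.2 to 54.9 CPM in HFLF, so the lowest HF library lay below every HFLF library. These names share a locus and are not independent of each other.

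**Figure D4:**
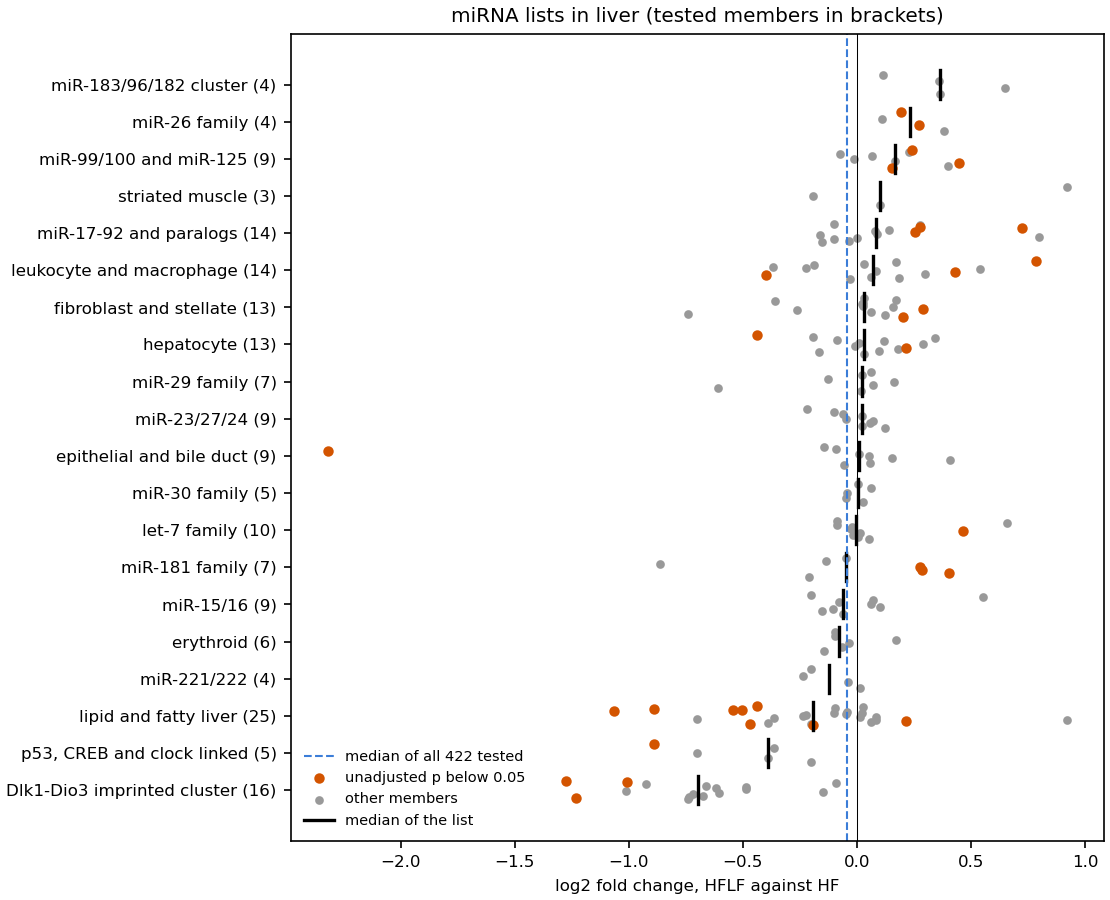
Log2 fold change of HFLF against HF of each tested member (points), grouped by list for the lists with at least 3 tested members; black bars are list medians, orange points have an unadjusted p below 0.05, and the dashed line is the median of all 422 miRNAs (-0.04). The Dlk1-Dio3 list has the lowest median (-0.70) and the lipid list lies below the dashed line at -0.19.

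Some seeds were held by more than one miRNA with an unadjusted p below 0.05. In 4 cases the pair lay on the same side of 0: miR-26a-5p with miR-26b-5p, miR-181a-5p with miR-181b-5p, and miR-99b-5p with miR-100-5p (0.15, and 0.10 without HFLF 5) were higher, and miR-103-3p with miR-107-3p were lower. Further tested miRNAs with the miR-181 and miR-99 seeds lay below 0 at an unadjusted p above 0.05 (edgeR). These were miR-181c-5p (-0.14), miR-181d-5p (-0.05) and miR-99a-5p (-0.08), named after their values were seen. In the other 2 cases the seed mates of small p lay on opposite sides. miR-92a-3p lay higher while miR-32-5p, with the same seed AUUGCAC, lay lower (0.28 and -0.48 on the log2 scale; adjusted p = 0.109 and 0.282). miR-148a-3p lay higher and miR-148b-3p lower (0.21 and -0.24; adjusted p = 0.282 and 0.141), although they differ only at the 2 bases behind the seed (C9U and U10C). miR-32-5p and miR-148b-3p were chosen after their values were seen. Both arms were tested for 112 hairpins. In 4 of them (those of miR-22, miR-181a-2, miR-32 and miR-335) both arms had an unadjusted p below 0.05, with the same sign in each. In 20 only 1 arm did, and over all 422 miRNAs the share at that level was 15.4%. miR-181a-5p is also made from the miR-181a-1 hairpin, whose other arm lay at -0.21 (edgeR, unadjusted p = 0.606) and was named after its values were seen. Arms of a hairpin share a precursor and members of a family can share reads, so these are not independent observations.

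The levels in LF place the comparison. HF against LF in the same fit called 24 of 422 miRNAs (5.69%), 11 higher (2.61%) and 13 lower (3.08%) in HF (47 by DESeq2, 61 with total counts, 40 with total counts without miR-122-5p), and HFLF against LF called 0 (0%), with 51 (12.1%) at an unadjusted p below 0.05 and 4 called by DESeq2. Among the 24 are miR-149-5p, miR-465c-5p, miR-335-5p, miR-511-5p and miR-26a-5p, which were named above for their small p. The HF libraries enter both contrasts, so an extreme HF level can give a small p in both. This overlap was not tested and cannot show a return toward LF. miR-149-5p rose by 1.91 on the log2 scale in HF against LF (adjusted p = 0.000433) and lay 0.89 above LF in HFLF (adjusted p = 0.214). miR-465c-5p fell by 1.88 in HF against LF (adjusted p = 0.000534) and lay at -0.46 in HFLF (adjusted p = 0.553). miR-802-5p rose by 0.99 in HF (adjusted p = 0.00492) and lay at 0.55 in HFLF (adjusted p = 0.270). miR-107-3p rose by 0.60 (adjusted p = 0.0186) and lay at 0.14 (adjusted p = 0.823).

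Levels of further members of the 24 are given by diet. The 24 also hold miR-465a-3p, miR-465b-3p and miR-465c-3p, named after their values were seen. miR-465b-3p and miR-465c-3p had equal values in every HF and HFLF library, so they are not separate observations. The 24 were picked for an HF level far from LF, which favours an HFLF level between them. Their order over the 3 diets is therefore a description only. miR-592-5p lay at a median of 43.4 CPM in LF, 10.4 CPM in HF and 21.0 CPM in HFLF. miR-194-5p, a hepatocyte miRNA, lay at 10826, 13193 and 12242 CPM in that order, and in HFLF it lay between the other diets. miR-3065-5p was at a median of 0.0331 CPM in LF, which is under the level of 3 counts, 2.58 CPM in HF and 0.973 CPM in HFLF. miR-592-5p, miR-194-5p and miR-3065-5p were chosen after their values were seen. A miRNA called in HF against LF and not called in HFLF against HF is not shown to have kept its HF level: all 3 contrasts use the same 18 libraries, and the intervals of HFLF against HF for miR-592-5p (-0.03 to 1.83) and miR-122-5p (-0.03 to 0.39) hold sizable changes.

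The same diets were compared in eWAT, and 1 fit of both count tables tested whether the diet difference itself differed between the tissues, with an interaction term. Liver and eWAT libraries entered as independent samples, since the labels do not say whether they came from the same mice. Of 595 miRNAs, 57 (9.58%) had a called difference (edgeR, Benjamini-Hochberg adjusted p below 0.05), 20 of them with the higher value in liver (3.36%) and 37 with the lower (6.22%). The count was 33 without eWAT HF 3 and 37 without eWAT HFLF 5. Among the 75 named miRNAs, 15 had one. let-7e-5p lay 0.49 higher in HFLF in liver and 0.33 lower in eWAT, a difference of 0.82 (SE 0.17, adjusted p = 0.00343). Within that fit its change was called in neither tissue (edgeR, Benjamini-Hochberg adjusted p = 0.0557 in liver and 0.0566 in eWAT). miR-107-3p lay 0.43 lower in liver and 0.54 higher in eWAT (difference -0.97, SE 0.22, adjusted p = 0.00619).

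Scaled over both tissues, miR-107-3p ran from 610 to 904 CPM in liver HF and from 395 to 654 CPM in liver HFLF, but from 81.8 to 180 CPM in eWAT HF and from 164 to 209 CPM in eWAT HFLF. The fitted changes of miR-107-3p had opposite signs in liver and eWAT, with overlap of the diets in each. In that fit the change was called in eWAT (edgeR, adjusted p = 0.0131) and not in liver (adjusted p = 0.198). miR-511-5p had a difference of 1.29 (SE 0.30, adjusted p = 0.00685), with a fitted change above 0 in liver and below 0 in eWAT. Neither of these changes was called by itself (edgeR, adjusted p = 0.0563 in liver and 0.0759 in eWAT). miR-5099 had a difference of 1.37 (SE 0.25, adjusted p = 0.00261), and miR-25-5p one of 1.69 (SE 0.34, adjusted p = 0.00287), in the same directions. For this pair the eWAT change was called (edgeR, adjusted p = 0.00189 and 0.00433) and the liver change was not (0.0740 and 0.146). miR-425-5p differed by -0.50 (SE 0.15, adjusted p = 0.0340), with a fitted change below 0 in liver and above 0 in eWAT. Its change was called in neither tissue (edgeR, adjusted p = 0.242 in liver and 0.173 in eWAT). Some of the 15 calls did not hold when 1 library was left out. Of the 24 fits that each left out 1 library, the call was lost in 21 for miR-30b-5p, 14 for miR-425-5p, 11 for miR-802-5p, 6 for miR-101b-3p, 2 for miR-221-5p, and 1 each for let-7g-5p and miR-30c-5p.

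For let-7g-5p, miR-29b-3p, miR-30b-5p, miR-30c-5p, miR-101b-3p, miR-221-5p and miR-222-3p the log2 fold change in liver ran from -0.23 to -0.02. The change in eWAT was larger in size for each. It lay below 0 in eWAT for miR-221-5p (-1.47) and miR-222-3p (-1.85), and from 0.47 to 1.06 for the others. miR-29b-3p, for example, had a log2 fold change of -0.11 in liver and 1.06 in eWAT (adjusted p of the difference = 0.00261). Markers of other cells also moved in eWAT, where 111 of 595 miRNAs (18.7%) were called between HFLF and HF in the same fit, 65 higher (10.9%) and 46 lower (7.73%). Of the 14 leukocyte and macrophage miRNAs 3 fell in eWAT, among them miR-146b-5p (-0.98, adjusted p = 0.000425), and 1 rose, miR-150-5p (0.76, adjusted p = 0.0136). Their summed level ran from 2797 to 4861 CPM in eWAT HF and from 2428 to 3745 CPM in eWAT HFLF. Of the 13 fibroblast and stellate miRNAs 4 rose and 1 fell, and their sum ran from 46015 to 93000.2 CPM in eWAT HF and from 82072 to 150411 CPM in eWAT HFLF. The sum of the 9 epithelial miRNAs reached 97.3 CPM in eWAT HF and 1322 CPM in eWAT HFLF, with medians of 56.9 and 67.5 CPM. Of the 13 hepatocyte miRNAs 5 rose and 0 fell in eWAT. Their sum ran from 3944 to 5076 CPM in eWAT HF and from 5337 to 8525 CPM in eWAT HFLF. Of 7 erythroid miRNAs 3 rose and 0 fell, and of 3 endothelial miRNAs 1 rose and 0 fell. Of 5 striated muscle miRNAs 0 were called. The part of these cells in the differences between liver and eWAT was not tested. miR-33-5p and miR-802-5p also had a called difference, but their eWAT HF medians of 0.139 and 0.0359 CPM lie under the 0.147 to 0.254 CPM that 3 counts are worth there, so the fitted size of the eWAT change cannot be read as a fold change.

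**Figure D5:**
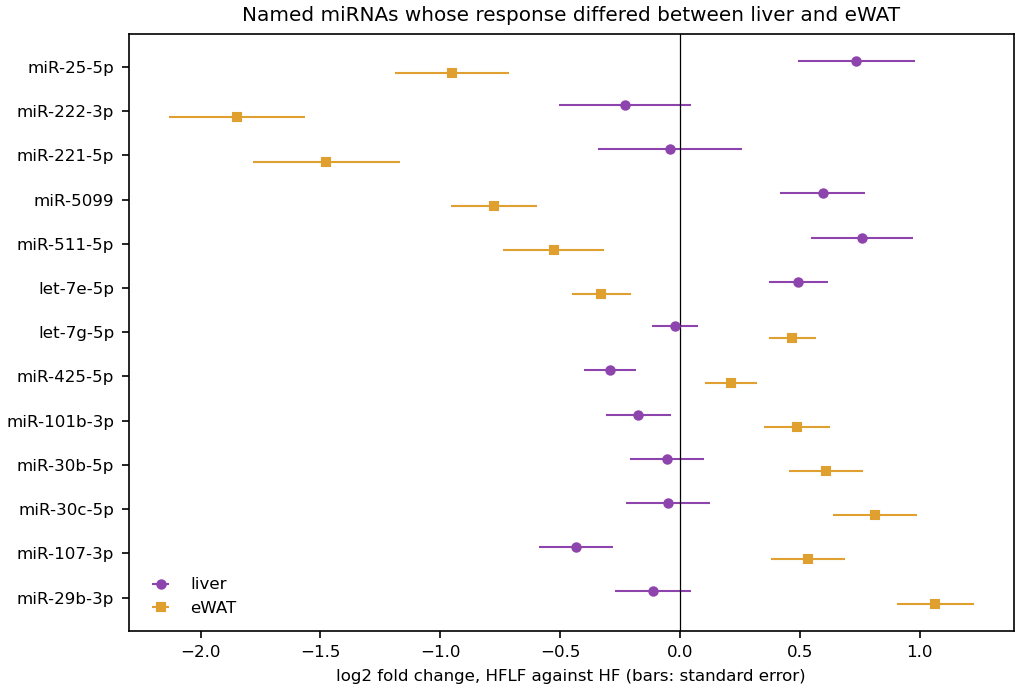
Log2 fold change of HFLF against HF in liver (circles) and eWAT (squares), with standard errors, for the 13 named miRNAs whose change differed between the tissues and whose eWAT HF median lay above the level of 3 counts. let-7e-5p, miR-25-5p, miR-511-5p and miR-5099 lie above 0 in liver and below 0 in eWAT, and miR-107-3p and miR-425-5p the other way round. None of the liver changes shown was called by itself within this fit.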

How the data were processed

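Small RNA libraries of the study were prepared from total RNA with a NEXTFLEX small RNA kit, per the labels' protocols. cutadapt, Bowtie and the build GRCm38.p6 are named in the submitters' processing notes; the miRNA reference, the counting program and versions are not given in the sources used here. The deposited liver and eWAT tables hold the authors' raw counts per mature miRNA, not normalized. All 18 liver columns recur unchanged in the eWAT table and were read from the liver table only. A deposited sperm table, which holds log-scale values and no liver data, was not used; 18 of its columns match no sample here.

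Liver counts of all 18 libraries were fitted with edgeR 4.0.16 in R 4.3.3 (filterByExpr by diet, TMM scaling, quasi-likelihood test, contrasts between the 3 diets). A call is a 2-sided Benjamini-Hochberg adjusted p below 0.05 over the 422 miRNAs tested. SE is the log2 fold change divided by the square root of its F statistic, and 95% intervals use the test's degrees of freedom. CPM are per 1000000 TMM-scaled counts. The counts that the filter removed were at most 0.0149% of a library. Counting used no molecular identifiers that the sources state, so values of 3 counts reflect counting error only. No replicate pair agreed within sampling noise (lowest chi-square per degree of freedom 35.3). Host genes come from the GENCODE M21 annotation of the same build. Scripts were tested on simulated data.

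The comparison, the 23 miRNA lists and the naming rule were chosen with earlier results of these data known, and the lists were given no set test. The rule names the 5 most abundant miRNAs, the 10 of smallest p where fewer than 10 are called, every let-7 member, and the 3 of smallest p of each list with at least 3 tested members, 75 in all. Alternatives were DESeq2 1.42.0, RLE scaling, total counts with and without miR-122-5p, no filter, HF and HFLF alone, the replicate number as a block, and leaving out each library.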

Additional observations from a re-analysis of the deposited data

Results flagged for a closer look

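Within the HF and HFLF groups, 154 sets of 6 values (the named miRNAs on the log2 CPM scale, the share of miR-122-5p and the total count) were checked for a library whose distance to its nearest neighbour took up an unusually large part of the group's range. In 6 sets such a library was found, 3.90% of the sets, where chance gives about 1 in 20. HF 1 was the highest library for miR-146b-5p, with a gap of 0.821 of the range (123 CPM, the other 5 between 64.8 and 72.7 CPM), and the lowest for miR-30b-5p, with a gap of 0.628 (505 CPM, the others between 640.2 and 737 CPM). HF 5 was the lowest for miR-29b-3p (gap 0.776; 85.3 CPM against 114 to 125 CPM), HF 3 for miR-10a-5p (gap 0.627; 3344 CPM against 3641 to 3831 CPM) and HF 2 for miR-25-5p (gap 0.663; 1.36 CPM against 2.70 to 3.76 CPM). HFLF 4 was the highest for miR-21a-5p (gap 0.633; 62857 CPM against 42997 to 49436 CPM).

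The log2 fold change of HFLF against HF differed between liver and eWAT, by the interaction test in edgeR with Benjamini-Hochberg adjustment, for 15 named miRNAs. The value in liver was above that in eWAT by 1.69 for miR-25-5p (adjusted p = 0.00287), 1.62 for miR-222-3p (0.00847), 1.43 for miR-221-5p (0.0288), 1.37 for miR-5099 (0.00261), 1.29 for miR-511-5p (0.00685) and 0.82 for let-7e-5p (0.00343). The liver minus eWAT difference was -0.49 for let-7g-5p (0.0204), -0.50 for miR-425-5p (0.0340), -0.66 for miR-101b-3p (0.0254), -0.66 for miR-30b-5p (0.0460), -0.86 for miR-30c-5p (0.0218), -0.97 for miR-107-3p (0.00619) and -1.18 for miR-29b-3p (0.00261). The fitted value was -2.75 for miR-33-5p (0.0153) and -3.32 for miR-802-5p (0.0361); neither can be read as a fold difference, because the eWAT HF medians lie under the level of 3 counts.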

How the results depend on the processing

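The count of miRNAs called in HFLF against HF was 0 under TMM, total counts, total counts without miR-122-5p, HF and HFLF alone and the replicate block, 15 under DESeq2 (9 higher, 6 lower), 1 under RLE (1 higher) and 9 without the filter (4 higher, 5 lower, with 164 at an unadjusted p below 0.05). Leaving out each library gave 0 to 6 calls (0 to 3 higher, 0 to 3 lower) and 50 to 67 at an unadjusted p below 0.05. The cause of these differences was not tested. Groups without overlap numbered 3 under total counts and 4 to 11 without one library. The difference in the share of miR-122-5p was 1.74 to 3.33 points without one library, and the liver minus eWAT count 33 to 69. In HF against LF, 24 calls became 47 under DESeq2, 61 with total counts and 40 with total counts without miR-122-5p; in HFLF against LF, 0 became 4 under DESeq2 and 15 without the filter. These other contrasts were recounted after seeing the data.

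None of the log2 fold changes that changed sign was called in any setting. They were 0.0041 under DESeq2, 0.0041 under RLE and 0.020 with HF and HFLF alone for let-7c-5p, and with HF and HFLF alone 0.0069 for let-7f-5p and 0.015 for let-7g-5p. Under total counts they were -0.047 for let-7a-5p, -0.096 for let-7b-5p, -0.085 for let-7d-5p, -0.0026 for miR-21a-5p, -0.035 for miR-30d-5p and -0.033 for miR-133a-3p. Under total counts without miR-122-5p they were -0.026 for let-7b-5p and -0.015 for let-7d-5p. Without one library the range was -0.036 to 0.084 for let-7b-5p, -0.052 to 0.053 for let-7c-5p, -0.0083 to 0.11 for let-7d-5p, -0.043 to 0.016 for let-7f-5p, -0.048 to 0.015 for let-7g-5p, -0.11 to 0.018 for miR-30b-5p, -0.10 to 0.029 for miR-30c-5p, -0.073 to 0.48 for miR-486a-3p, -0.29 to 0.20 for miR-486a-5p, -0.50 to 0.13 for miR-1a-3p, -0.53 to 0.57 for miR-133a-3p and -0.10 to 0.078 for miR-221-5p.

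The replicate numbers did not pair the samples: same-numbered HF and HFLF libraries deviated together with r from -0.20 to 0.27, over 0.1 in 2 of 6 pairs, and 1 of 6 matched its own number best. With the replicate block, 0 miRNAs were called, 57 had an unadjusted p below 0.05, and the share of miR-122-5p had an exact sign-flip p of 0.125. Under the block 46 differences between the tissues were called in all. The call was lost for miR-425-5p, liver minus eWAT (adjusted p = 0.0647), for miR-30b-5p, liver minus eWAT (adjusted p = 0.0905), and for miR-221-5p, liver minus eWAT (adjusted p = 0.0726). Liver and eWAT libraries of the same diet and number did not deviate together either (r from -0.07 to 0.13, over 0.1 in 1 of 18 pairs, 2 of 18 best with their own number). With the number as a replicate block shared by liver and eWAT, added after seeing the data, 34 differences were called, and of the 15 named those of miR-425-5p, let-7g-5p, miR-802-5p, miR-30b-5p and miR-221-5p were not among them. Depth limits what can be said of miRNAs under 10 CPM.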
